A study of Homo sapiens with 6 samples.

Results

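The miR-200 family consists of 5 human miRNA genes, and 9 of the 2019 human probes on the array carry their names. These were the probes named miR-200a, miR-200b, miR-200c, miR-141 or miR-429, with any arm, a rule on names that used no signal. They cover the 3p and 5p arms of miR-200a, miR-200b, miR-200c and miR-141, and the listed miR-429. The study measured miRNAs in HuH7, an established human hepatocellular carcinoma line, in 3 cisplatin samples and 3 control samples. Cisplatin samples received 1 µg/ml of cisplatin, a platinum drug that crosslinks DNA, for 24 h, and control samples were kept without it. All 6 came from the same line under the same growth conditions, and the labels leave unsaid whether the 3 samples of a group came from separate cultures. The p-values below therefore reflect the spread among these arrays, which could be technical.

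The family is a textbook regulator of epithelial identity. Its members repress ZEB1 and ZEB2, transcription factors that silence E-cadherin, and the ZEB factors in turn repress transcription of the family, so that each side holds the other down. High levels mark epithelial cells, and low levels accompany epithelial-mesenchymal transition (EMT), a change of cell state that has been studied in resistance of carcinoma cells to platinum drugs. In the liver the family is known mainly from bile duct epithelium.

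The genes lie in 2 clusters. In GRCh38.p14, MIR200B (chr1:1167104-1167198), MIR200A (chr1:1167863-1167952) and MIR429 (chr1:1169005-1169087) span 1984 bases of the plus strand inside the long noncoding host gene MIR200BHG. MIR200C (chr12:6963699-6963766) and MIR141 (chr12:6964097-6964191) span 493 bases of the plus strand inside the noncoding host gene MIR200CHG. RefSeq gave mature sequences for 8 of the 9 probes' miRNAs. They are printed 5′ to 3′ because the seed, bases 2 to 8 and in capitals, decides which messages a miRNA pairs with, and because the likeness of the rest bears on how far a probe can tell relatives apart.
hsa-miR-200b-3p: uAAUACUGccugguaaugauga
hsa-miR-429: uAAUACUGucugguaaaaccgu
hsa-miR-200c-3p: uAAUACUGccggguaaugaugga
hsa-miR-200a-3p: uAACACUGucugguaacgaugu
hsa-miR-141-3p: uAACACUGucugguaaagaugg
hsa-miR-200b-5p: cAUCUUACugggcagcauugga
hsa-miR-200a-5p: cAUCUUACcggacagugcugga
hsa-miR-200c-5p: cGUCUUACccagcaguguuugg

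The seed AAUACUG is shared by miR-200b-3p, miR-200c-3p and miR-429, and the seed AACACUG by miR-200a-3p and miR-141-3p, so that each seed group draws on both clusters. No other RefSeq human mature miRNA in the table used had either seed. Counted from 1 at the 5′ end over the 22 bases compared, miR-200b-3p and miR-200c-3p differed by U11G and A22G, and miR-200a-3p and miR-141-3p by C17A and U22G. The seeds of these pairs were identical, and between the seed groups the only seed difference was at base 4, as in U4C between miR-200b-3p and miR-200a-3p. How far the array's probes also capture such near relatives was not tested. Of the 5p arms, miR-200a-5p and miR-200b-5p shared a seed, while that of miR-200c-5p was otherwise found in miR-550a-3p.

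The values are scanner intensity per spot, and a probe was counted as detected where its foreground median exceeded a limit, the mean of that array's 925 blank spots plus 2 of their SD. This limit was 209, 247 and 227 scanner units on cisplatin arrays 1, 2 and 3, and 220.1, 239.83 and 228 on control arrays 1, 2 and 3. Above it lay 713, 329 and 643 human probes on cisplatin arrays, and 703, 500 and 738 on control arrays. The number of arrays limits the precision. All 5 probes of the liver marker list, among them both arms of miR-122, lay above the limit on all 6 arrays. So did 0 of 5 blood cell probes, beside 12% of all human probes. Only 1 of those 5 was above it on no array, beside 30.9% of all human probes, so blood cell miRNAs are not shown to be absent. Of 7 endothelial and stromal probes, 3 were above the limit on all 6 arrays. The summed raw signal of these 7 ranged from 1607 to 1825 on cisplatin arrays and from 1591 to 1789 on control arrays. The mean of the blank spots was 184 to 213 units on the 6 arrays, so most of each sum is floor. Replicate 2 of each group lay at slide positions 1 and 2, the other arrays at positions 3 and 4, and positions 1 to 4 each held a single group, so the effect of position cannot be told apart from that of cisplatin.

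Most family readings lay below the blank limit in HuH7 cells with and without cisplatin, as did most readings of all human probes. Family members were above the limit in 10 of 27 probe readings on cisplatin arrays and in 12 of 27 on control arrays. For all human probes the shares were 27.8% and 32% of readings, so low detection was not particular to the family. By array, 4, 3 and 3 of the 9 probes were detected on cisplatin arrays 1, 2 and 3, and 5, 4 and 3 on control arrays 1, 2 and 3. Detected on all 6 arrays was 1 probe of 9, miR-200a-3p, against 12% of all human probes. miR-200b-3p was detected on 5 of 6, 6 further probes on 1 to 3 arrays, and miR-200b-5p on 0, where 30.9% of all human probes were above the limit on no array. The plot of raw foreground by array shows each reading beside its own limit.

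**Figure D1:**
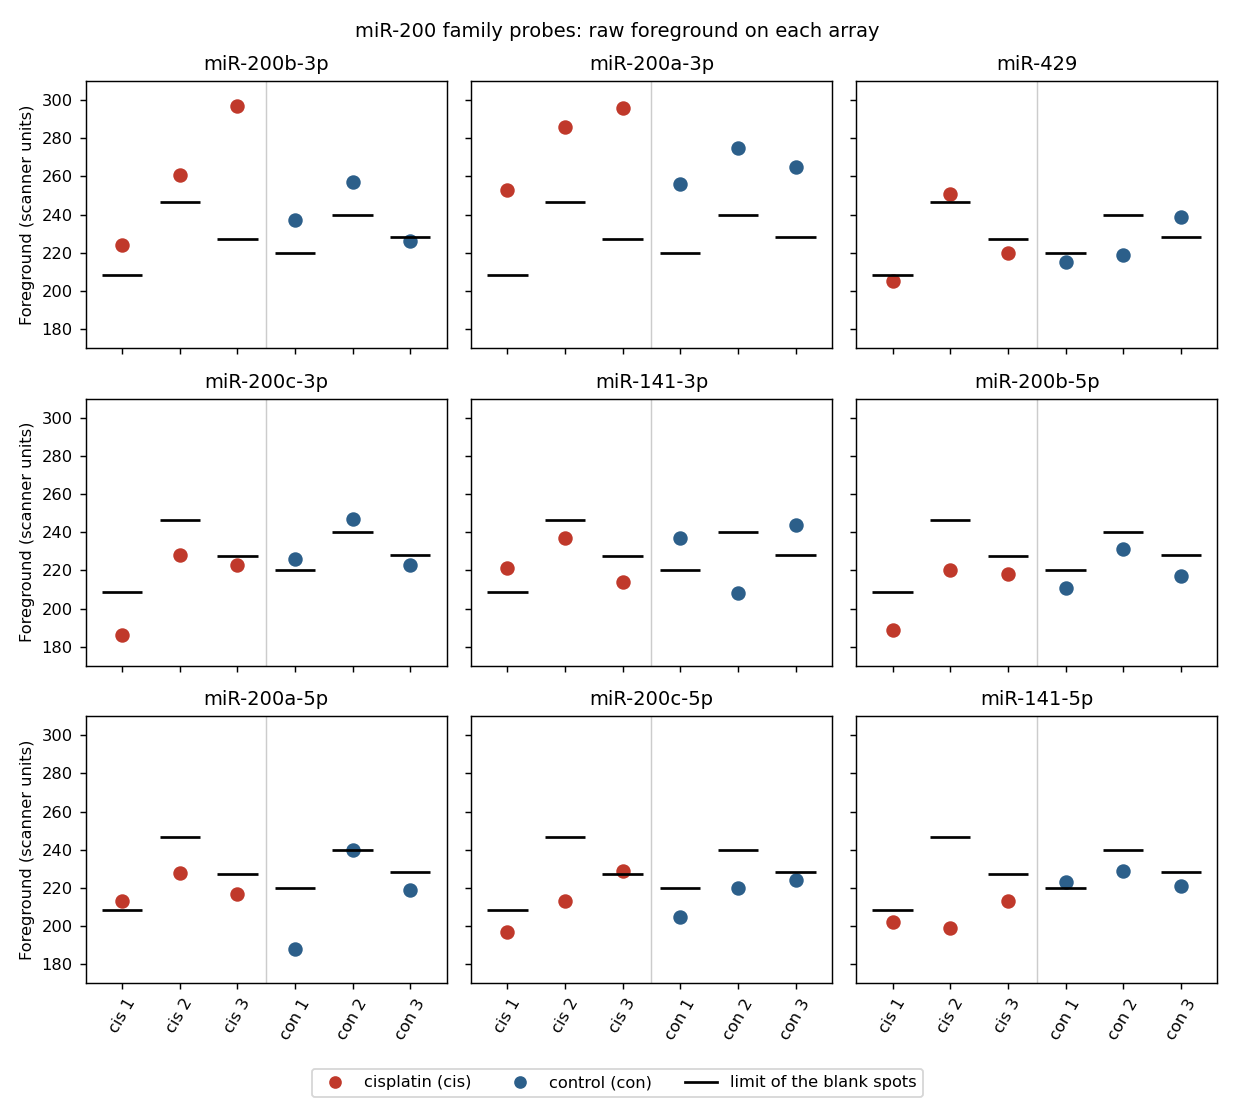
Raw foreground median (scanner units, axis cut below 170) of the 9 miR-200 family probes on cisplatin arrays 1 to 3 (left in each panel) and control arrays 1 to 3 (right). Each point is 1 spot and each bar the limit of that array's blank spots; only miR-200a-3p lies above its bar on all 6 arrays.

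miR-200a-3p, of the AACACUG group, gave the steadiest signal against the blanks. Its raw foreground was 253, 286 and 296 on cisplatin arrays 1, 2 and 3, against 256, 275 and 265 on control arrays 1, 2 and 3. At most 4 of the 925 blank spots of an array, on cisplatin array 2, were as bright. The raw groups overlapped, since control arrays 1 to 3 all lay above cisplatin array 1. The exact two-sided permutation test of the raw values gave p = 0.5, where 0.1 is the smallest p that 3 against 3 arrays can give. Raw values carry each array's floor, a blank mean of 184 on cisplatin array 1 and 196 to 213 on control arrays. Less local background the values were 116, 116 and 144 in cisplatin and 110, 95 and 104 in control samples. These did not overlap, while the normalized values did, and the net difference was not tested. After background correction and quantile normalization the log2 level was 7.26 ± 0.046 in cisplatin and 7.17 ± 0.078 in control samples (SD, n = 3 each). The log2 difference, cisplatin minus control, was 0.092 (SE 0.060, limma adjusted p = 0.569). Control arrays 2 and 3 received the same normalized value (7.12), and with trend and robust moderation the SE was 0.085. Within same-numbered pairs the difference was 0.011, 0.087 and 0.18. In raw values the first of these pairs leaned the other way (253 in cisplatin against 256 in control), on arrays with blank means of 184 and 196. Less local background that pair leaned toward cisplatin (116 against 110). The log2 difference between the groups did not pass the test.

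miR-200b-3p, the neighbour of miR-200a in the chromosome 1 cluster and of the AAUACUG group, was the other probe that could be tested, since a test required detection on all 3 arrays of at least 1 group. That held for 2 of 9 family probes and for 16% of all human probes. miR-200b-3p met it through the cisplatin arrays alone (3 of 3, against 2 of 3 control arrays). Entry through the group with the higher mean favours a positive difference, so the sign for miR-200b-3p carries no weight. Its raw foreground was 224, 261 and 297 on cisplatin arrays 1, 2 and 3, against 237, 257 and 226 on control arrays 1, 2 and 3. Cisplatin array 3 was the highest and cisplatin array 1 the lowest of the 6, so the groups overlapped (exact two-sided permutation p = 0.5). On control array 3 its 226 lay just under the limit of 228, and 46 of 925 blank spots were as bright there. The normalized log2 level was 7.33 ± 0.17 in cisplatin and 7.17 ± 0.16 in control samples (SD, n = 3 each), a difference of 0.17 (SE 0.12, limma adjusted p = 0.597). Within same-numbered pairs it was -0.038, 0.0062 and 0.53, so replicate 3 supplied nearly all of it. The difference was 0.069 without cisplatin replicate 3 and 0.077 without control replicate 3.

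In the fit over all 324 tested probes, 1 passed (0.309%), and 0 of the 2 tested family probes did. At an unadjusted p under 0.05, 15.7% of tested probes stood, against 0 of these 2. In a limma fit with a block for the replicate number, 0 of the 324 passed (56 at an unadjusted p under 0.05) and the family's count stayed at 0. Between the arrays at slide positions 1 and 2 (replicate 2) the log2 difference was 0.087 for miR-200a-3p and 0.0062 for miR-200b-3p. In a fit of the arrays at positions 3 and 4 it was 0.099 (SE 0.080) and 0.25 (SE 0.17). Both stayed on the positive side, which the filter favours for miR-200b-3p, and neither passed there.

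**Figure D2:**
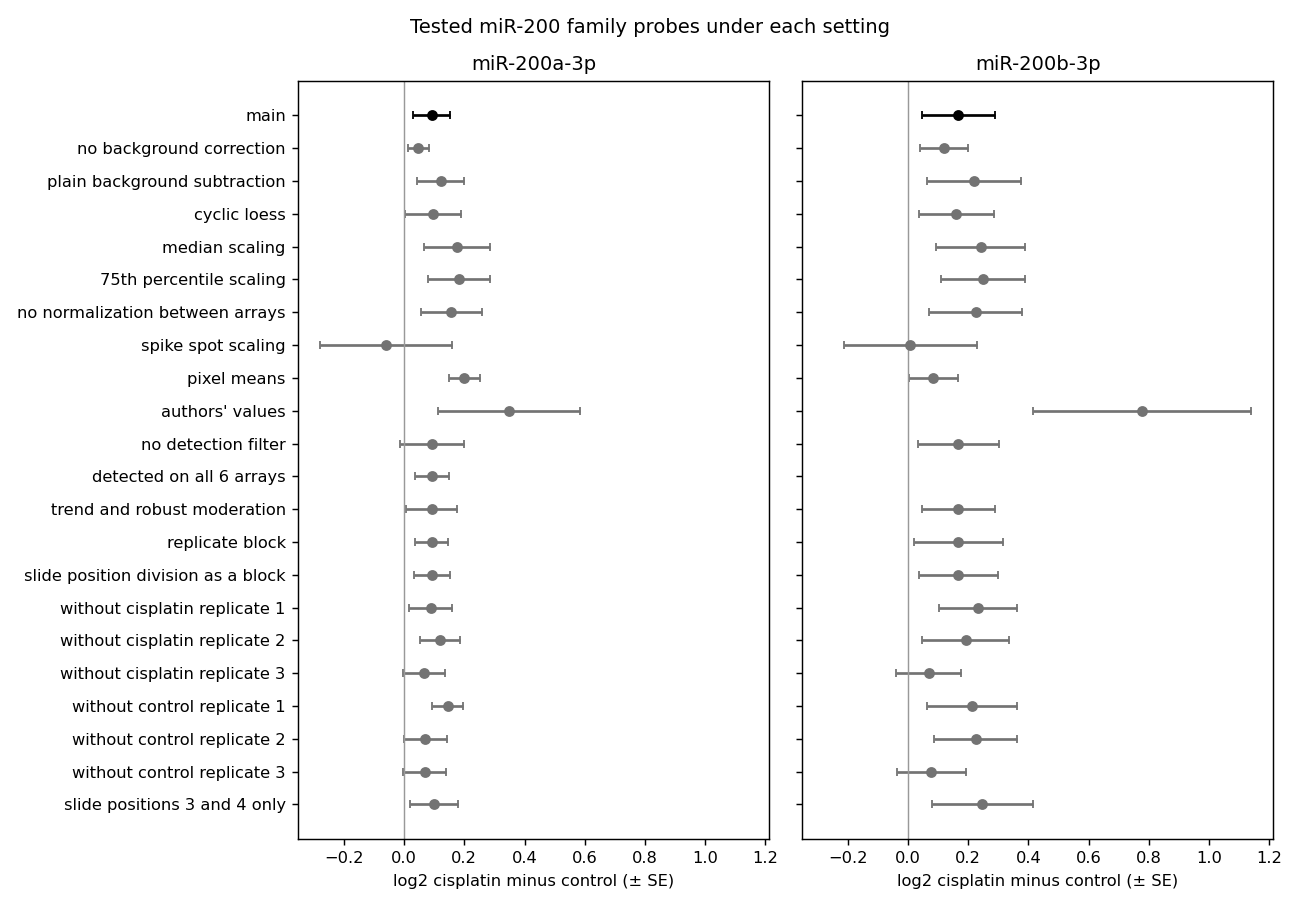
Log2 difference, cisplatin minus control, of miR-200a-3p and miR-200b-3p in the main analysis (black) and under each other setting (grey), with bars of 1 SE; miR-200b-3p has no value for probes detected on all 6 arrays. The points lie between 0 and 0.4 for miR-200a-3p except with scaling to spike spots (-0.059), and the highest for miR-200b-3p is 0.78 with the authors' values.

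The other members of the 3p side stayed at the edge of the blanks. miR-429, the third member of the chromosome 1 cluster, had a raw foreground of 205, 251 and 220 on cisplatin arrays 1, 2 and 3, against 215, 219 and 239 on control arrays 1, 2 and 3. It passed the limit on cisplatin array 2 and on control array 3 only, and the groups overlapped (exact permutation p = 0.9).

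miR-200c-3p, the chromosome 12 member that differs from miR-200b-3p by 2 bases, had a raw foreground of 186, 228 and 223 on cisplatin arrays 1, 2 and 3, against 226, 247 and 223 on control arrays 1, 2 and 3. Of cisplatin arrays 0 of 3 showed it above the limit, and of control arrays 2 of 3. The raw values of the groups overlapped, since cisplatin array 2 (228) lay above control arrays 1 (226) and 3 (223) (exact permutation p = 0.5). The normalized values did not overlap, at 6.69 ± 0.19 log2 in cisplatin and 6.92 ± 0.056 in control samples (SD, n = 3 each). Of all 2019 human probes, 4.95% had lower normalized values after cisplatin without overlap. miR-200c-3p did not enter the main test, and no fold is given, since it was below the limit on 3 of 3 cisplatin arrays.

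miR-141-3p, which shares its cluster with miR-200c and its seed with miR-200a, had a raw foreground of 221, 237 and 214 on cisplatin arrays 1, 2 and 3, against 237, 208 and 244 on control arrays 1, 2 and 3. It was above the limit on 1 cisplatin array and on 2 control arrays, and the spread within each group exceeded the difference between them (exact permutation p = 0.8). The lowest reading, on control array 2, was matched or exceeded by 591 of the 925 blank spots.

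The 5p arms, the strands of the hairpin that are usually less abundant in this family, were seldom detected. miR-200b-5p lay below the limit on every array, with raw values of 189, 220 and 218 on cisplatin arrays 1, 2 and 3, against 211, 231 and 217 on control arrays 1, 2 and 3. miR-200a-5p was detected on 1 array of each group and ranged from 213 to 228 on cisplatin arrays and from 188 to 240 on control arrays. On control array 2 it exceeded the limit by 0.17 units. miR-200c-5p was detected on cisplatin array 3 alone and ranged from 197 to 229 on cisplatin arrays and from 205 to 224 on control arrays.

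miR-141-5p was the 1 family probe whose raw values did not overlap between the groups. It had 202, 199 and 213 on cisplatin arrays 1, 2 and 3, against 223, 229 and 221 on control arrays 1, 2 and 3, lower on every cisplatin array (exact permutation p = 0.1, the smallest possible). Across all human probes, 4.56% were lower after cisplatin without overlap in raw values, beside 1 of 9 here. In normalized values miR-141-5p did not overlap either. With miR-200c-3p that made 2 of 9, both lower, beside 4.95% of all human probes, and neither count was tested. Less local background, however, miR-141-5p overlapped, at 46, 14 and 48 on cisplatin arrays 1, 2 and 3, against 67, 43 and 46 on control arrays. The floor in the raw values differed too, with blank means of 184, 211 and 205 on cisplatin arrays and 196, 213 and 207 on control arrays. Detection of miR-141-5p was confined to control array 1, where 14 of 925 blank spots were as bright. In a limma fit without a detection filter 0 of the 9 family probes and 0% of all 2019 passed. At an unadjusted p under 0.05 stood 1 of the 9, miR-141-5p on the lower side, against 4.8% of all probes, with 2.03% on the lower side. No fold is given for miR-141-5p, since 5 of its 6 readings lay below the limit.

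Over all 9 probes and without a detection filter, 5 differences were positive and 4 negative. Their median was 0.063 log2, against -0.0041 over all 2019 human probes in the same fit. By cluster, the 5 probes of chromosome 1 were all positive and the 4 of chromosome 12 all negative, a division looked at after the values were seen. It was not a clean one, because miR-141-3p and miR-200c-5p, at about 0, turned positive less the shift of all probes, which left 2 of 4 negative. Without background correction 4 of 5 chromosome 1 probes were positive and 2 of 4 chromosome 12 probes negative, and with pixel means in place of pixel medians 3 of 5 and 3 of 4. All 5 chromosome 1 probes stayed positive with plain background subtraction, cyclic loess, median or 75th percentile scaling, and no normalization between arrays. They also did with any 1 array left out. In these settings, which reuse the same arrays, 2 to 4 of the 4 chromosome 12 probes were negative. With scaling to spike spots 1 of 5 chromosome 1 probes was positive, and 5 of 5 less that setting's shift of -0.22. The division was not tested, and most of these readings lie below the blank limit.

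Local background, the signal around a spot, changed which members counted as detected. It was 117 to 149 units for miR-200b-3p and 155 to 185 units for miR-141-3p. That of miR-200b-3p was below the median of human probes on 6 of 6 arrays, and that of miR-141-3p on 0 of 6. With foreground minus local background in spots and blanks alike, miR-200b-3p was above the limit on 6 of 6 arrays, as was miR-200a-3p. At most 1 blank spot of an array reached their net signal. miR-200c-3p was then detected on 1 cisplatin array and on 3 control arrays, and miR-141-3p on 0 of 6. miR-141-3p, detected on 3 arrays in raw foreground, was thus detected on none against blanks treated the same way.

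**Figure D3:**
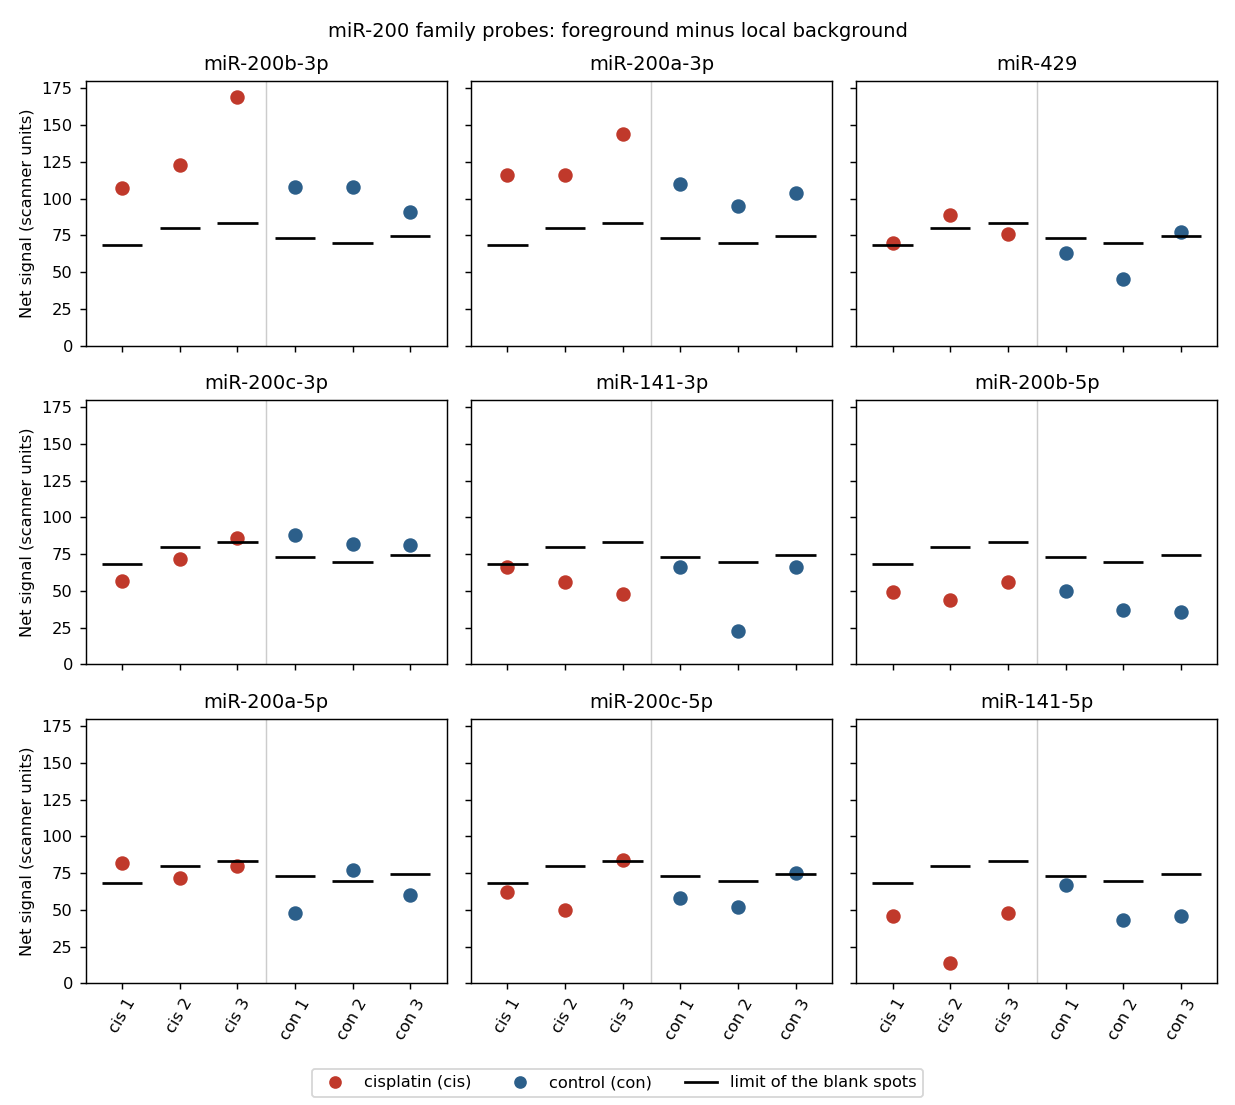
Foreground minus local background median (scanner units) of the 9 miR-200 family probes on cisplatin arrays 1 to 3 (left in each panel) and control arrays 1 to 3 (right), with the limit from blank spots treated alike (bars). miR-200a-3p and miR-200b-3p lie above the bar on all 6 arrays, and miR-141-3p, miR-200b-5p and miR-141-5p on none.

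The authors' deposited values are the foreground medians less a mean of the blanks from which 5% was trimmed at each end, scaled to a median of 31 on every array. A probe is listed where it exceeds that mean plus 2 SD of the trimmed blanks, which is 204 to 230 units on cisplatin arrays and 215 to 233 on control arrays. They list miR-200a-3p and miR-200b-3p on 6 of 6 arrays, miR-429 and miR-141-3p on 4, miR-200c-3p on 3, and miR-200b-5p on 0. In these values miR-200a-3p stood at 64.7, 75.9 and 93.3 on cisplatin arrays 1, 2 and 3, against 60.1, 57.97 and 63.7 on control arrays 1, 2 and 3. The groups did not overlap for this probe, with cisplatin the higher, as for 11.8% of the 296 probes listed on all arrays, but its limma adjusted p was 0.742 over the 519 probes tested in those values. miR-200b-3p stood at 37.6, 50.96 and 94.3 on cisplatin arrays and at 41.0, 41.2 and 21.2 on control arrays, with overlap.

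Across the 6 arrays the normalized levels of miR-200a-3p and miR-200b-3p had a Pearson correlation of 0.64, given as a description of arrays that share their groups and scaling. Among probes detected on all 6 arrays, the patterns most like miR-200a-3p were those of miR-30d-5p (r = 0.92), miR-130a-3p (0.88) and miR-181a-5p (0.87). Those most like miR-200b-3p were miR-99b-5p (r = 0.96), miR-1227-5p (0.91) and miR-4664-5p (0.89). These were the highest of 237 and 238 candidates over 6 arrays, and 0 of these 6 probes passed the limma test between the groups (adjusted p from 0.130 to 0.867).

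Other miRNAs of the EMT pathway did not pass either. The 2 lists of them were written with earlier results of these data known, so their counts and medians only describe the lists. Over all 324 tested probes, 155 were positive and 15.7% had an unadjusted p under 0.05. Of 14 probes for miRNAs known to act against EMT or on its transcription factors, 8 were tested, 6 were positive and 2 negative, and 0 passed in limma (3 at an unadjusted p under 0.05), with a median log2 difference of 0.034 beside -0.012 over all tested probes. miR-182-5p, from a cluster expressed in epithelial cells, was at 8.27 ± 0.14 log2 in cisplatin and 7.96 ± 0.071 in control samples (SD, n = 3 each), a difference of 0.31 (limma adjusted p = 0.169). miR-34a-5p, a p53 target that represses SNAI1, stood at 0.32 (adjusted p = 0.148), while its relative miR-34b-5p, named after its values were seen, stood at -0.28 (adjusted p = 0.169). miR-34b-5p entered the test through the control arrays alone (3 of 3, against 1 of 3 cisplatin arrays). That favours a negative difference, so its sign carries no weight. It is among the 2 negative probes and the 3 at an unadjusted p under 0.05. miR-192-5p and miR-215, relatives that share a seed and repress ZEB2, stood at -0.059 and 0.032. Epithelial miR-203a was detected on 0 of 6 arrays, and miR-205-5p, which represses ZEB1 and ZEB2 together with the miR-200 family, on 1 cisplatin and 2 control arrays.

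Of 11 probes for miRNAs studied as promoting EMT, 8 were tested, 7 were positive and 1 negative, and 0 passed in limma (4 at an unadjusted p under 0.05, beside the 15.7% of all tested probes). Their median was 0.17 beside -0.012 over all tested probes. This list too was written with earlier results known, so its excess over all tested probes is a description and was not tested. miR-103a-3p and miR-107, which target DICER1 and have been shown to lower miR-200 levels in breast cancer cells, both stood at 0.094 (SE 0.061 and 0.077). miR-21-5p, a widely studied oncogenic miRNA, stood at 0.38 and miR-23a-3p at 0.55, each with a limma adjusted p of 0.130. The negative probe was miR-155-5p, named here after its values were seen. It was detected on 0 of 3 cisplatin and 3 of 3 control arrays (limma adjusted p = 0.325), and no fold is given for it. miR-155-5p thus also entered the test through the control arrays alone, which favours a negative difference, so its sign carries no weight.

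**Figure D4:**
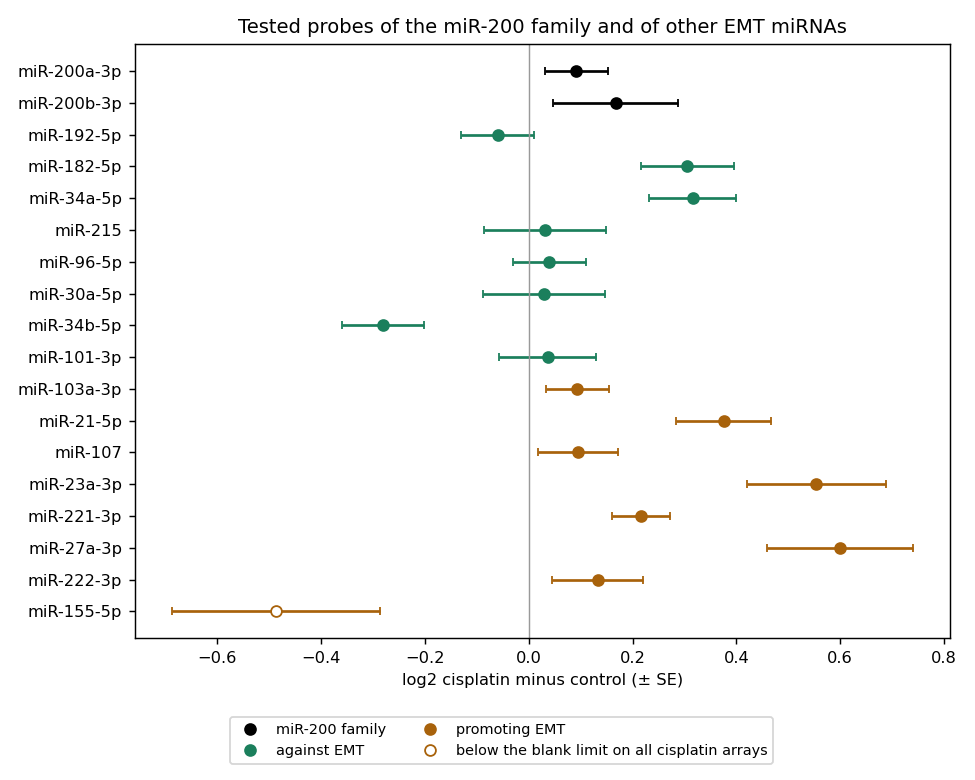
Log2 difference, cisplatin minus control, with bars of 1 SE, of the 2 tested miR-200 family probes (black), 8 tested probes for miRNAs acting against EMT (green) and 8 for miRNAs promoting it (orange). The open symbol is miR-155-5p, below the blank limit on all cisplatin arrays, whose fitted value is no measured fold; 0 of the probes shown passed the test.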

How the data were processed

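The 6 arrays were 1-colour scans of Hy5-labelled total RNA, per the labels. The scanner files hold linear intensity, as pixel medians and pixel means for every spot and its surroundings, per the file headers. The authors' deposited processed table holds intensity too and was used as an alternative. Its construction was worked out by setting it against the scanner values. The scanner is not given in the sources used here.

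Foreground and background medians of all 3200 spots were corrected with normexp (offset 50), and the 2019 human probes were quantile-normalized and put on the log2 scale. Probes that hold neighbouring ranks on several arrays get nearly equal values there, as miR-200a-3p did on control arrays 2 and 3 (7.12 on both), which makes an SE too small. The 324 probes above the blank limit on all 3 arrays of at least 1 group were fitted with lmFit and eBayes in limma 3.58.1 under R 4.3.3, with Benjamini-Hochberg adjustment at 0.05 over all of them. Where all arrays of a group missed the limit, no fold is given. For single raw values the exact permutation test of scipy 1.17.1 was used, two-sided. Figures were drawn with matplotlib 3.10.9. The steps were tested on simulated data.

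Family members were taken by name. The other miRNAs named are the 3 most correlated with each tested member, and examples from the 2 EMT lists by mean signal (miR-182-5p, miR-34a-5p, miR-192-5p, miR-215, miR-103a-3p, miR-21-5p, miR-107 and miR-23a-3p). miR-34b-5p, miR-155-5p, miR-203a and miR-205-5p were named after their values were seen. The members and lists were chosen with earlier results of these data known.

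After removal of group means, the tested probes of same-numbered samples correlated at 0.44 (number 1), 0.24 (number 2) and 0.20 (number 3). Each is over 0.1, which was taken to mean that the numbers pair the samples. Cisplatin 2 and control 3 correlated at 0.23, however, above number 3, so for numbers 2 and 3 the pairing is not settled. The labels number the samples but state no pairing. The main fit and the permutation tests ignore it, and the replicate block was run in limma as an alternative.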

Additional observations from a re-analysis of the deposited data

How the results depend on the processing

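No family probe was called in the main analysis or under any of the 21 other settings of the fit. miR-200b-3p was positive under all 20 that gave it a value (0.0080 to 0.78), and miR-200a-3p under 20 of 21 (-0.059 to 0.35), the exception being scaling to spike spots at -0.059, which is 0.086 above the median of the tested probes under that scaling. The blocks, the moderation and the filters cannot move these values, so their kept sign says nothing. miR-200b-3p also entered the main fit through the cisplatin arrays alone, which favours a positive value. Over the whole array 1 probe was called in the main analysis. It was 3 without background correction, 4 with cyclic loess, 2 with median scaling and 3 with the 75th percentile. It was 0 without normalization between arrays, with spike spot scaling, pixel means, the authors' values, no detection filter, detection on all 6 arrays, trend and robust moderation, the replicate block and slide positions 3 and 4 only (chosen after seeing the data). In these limma fits 33, 19, 39, 37, 97, 39, 38, 56 and 38 probes had an unadjusted p under 0.05. Leaving out 1 array gave 0 to 3 calls, with 3 without cisplatin replicate 2 and 0 without any other. The replicate block changed no family call.

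Family probes above the blank limit on all 6 arrays numbered 1. The number was 2 (with miR-200b-3p) for the 95th percentile of the blanks, the trimmed blank limit and foreground minus local background, and 0 with pixel means. Leaving out 1 array gave 1 to 2, with 2 without control replicate 3. On all arrays of at least 1 group it was 2, but 1 at mean plus 3 SD, 0 with pixel means, and 3 with foreground minus local background and without control replicate 2 or 3. Cisplatin readings above the limit were 10 of 27, but 6 at mean plus 3 SD, 5 with pixel means and 13 with the trimmed limit. The SD of the blank spots ranged from 10.8 to 300 between arrays in pixel means, against 10.6 to 18.0 in pixel medians, so the limit reached 829 on cisplatin array 2. Signal over background limits all statements on the 7 family probes that were not tested.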
